A study of Homo sapiens with 6 samples.

Results

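The tetraspanins, a family of small membrane proteins that organise other receptors on the cell surface, were followed in SW480 cells after depletion of the transcriptional repressor ZEB1. Members were taken by name, as every gene listed under a TSPAN number or as CD9, CD37, CD53, CD63, CD81, CD82 or CD151, which gave 26 of the 32029 genes listed. Of these, 22 had 10 or more reads in at least 3 of the 6 cultures and were tested, whereas 4 had too few reads. SW480 is an established human colorectal cancer line. In 3 cultures the cells carried the control siRNA siNC (labelled WT), and in 3 they carried siZEB1 (labelled ZEB1 knockdown). RNA was taken 48 h after transfection, and no other agent or allele separates the groups in the labels. The labels give no siRNA sequence and do not say whether 1 or several siRNAs against ZEB1 were used.

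Tetraspanins cross the membrane repeatedly and expose a small and a large loop outside the cell. They bind one another and chosen partners, such as integrins, proteases of the ADAM family and immunoglobulin-domain proteins, in clusters known as the tetraspanin web. In epithelial cells they are known for setting how integrins hold on to laminin, where ADAM10 cuts its substrates, and which cargo leaves in exosomes.

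Reads summed to between 19040636 and 22357633 per culture, of which 28980 to 39528 fell on the tetraspanins. The lowest Spearman correlation across genes was 0.995 between replicates of the siNC group and 0.996 between those of the siZEB1 group, the highest between groups was 0.981, and no 2 replicates agreed within sampling noise (chi-square over degrees of freedom of 2.25 to 9.40). ZEB1, the targeted gene, had 1247, 1276 and 908 reads with siNC and 136, 132 and 162 with siZEB1. KRT8 and KRT18, keratins of simple epithelia, were abundant. The intestinal transcription factor CDX2 had 2023 to 2312 reads with siNC and 760 to 862 with siZEB1, and the brush border protein VIL1 had 75 to 94 and 371 to 429 reads. The intestinal markers CDH17, CEACAM5 and LGALS4 had at most 9 reads in any culture and CDX1 was not listed.

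With siZEB1, 10 of the 22 tetraspanins tested fell and 2 rose, called by edgeR's quasi-likelihood test where the adjusted p-value was under 0.05. By the same rule, 21.0% of all 15187 genes tested fell and 18.8% rose, and 39.8% were called in either direction. The median log2 fold change was -0.46 for the 22 tetraspanins and -0.0053 for all genes tested. A fold above 1.5 with an unadjusted p-value under 0.05 was met by 8 tetraspanins that were lower and 1 that was higher, against 9.37% and 7.16% of all genes. The same numbers met that fold with an unadjusted p-value under 0.001, against 6.61% and 4.48% of all genes. The groups did not overlap for 15 of the 22, against 49.2% of all genes, with siZEB1 lower for 12 (25.1% of all genes) and higher for 3 (24.1% of all genes). TSPAN8 met the minimum of 10 reads only through its siNC cultures, so it had to differ if it was tested at all. The 8 lower by each fold rule, the 15 without overlap and the 12 of these that were lower all include TSPAN8. Without TSPAN8, 9 of 21 tetraspanins fell and 2 rose by adjusted p-value, with a median log2 fold change of -0.42. In the siZEB1 cultures the 3 largest falls were in TSPAN8, TSPAN12 and CD82, and the largest rise was in TSPAN13. P-values set the difference between the groups against the spread between the 3 cultures of a group, which edgeR estimates with information shared across genes. The study describes these cultures as biological replicates.

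**Figure D1:**
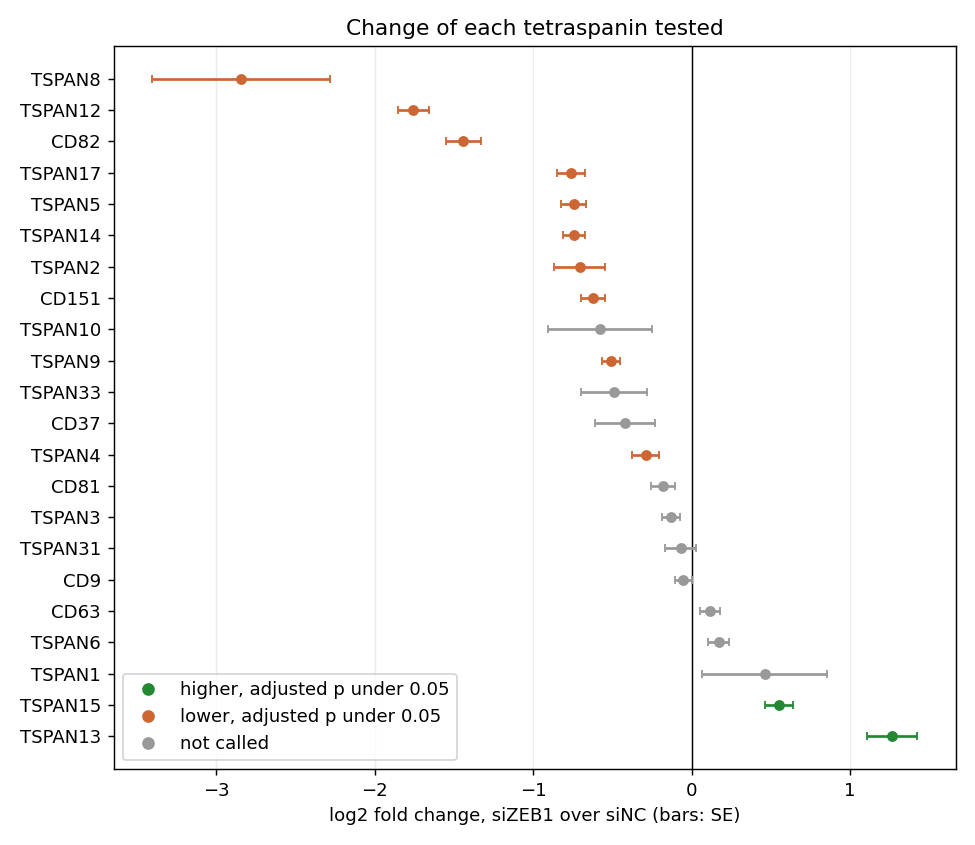
The log2 fold change of siZEB1 over siNC is plotted for each of the 22 tetraspanins tested, with bars for the SE. The 10 members called lower lie between -2.85 (TSPAN8) and -0.29, and the 2 called higher are TSPAN15 at 0.55 and TSPAN13 at 1.26. TSPAN8 was tested only because of its siNC cultures, and the other 9 called lower lie between -1.76 (TSPAN12) and -0.29.

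ZEB1 binds E-boxes with its zinc fingers, and the core CACCTG was searched on both strands, where it also reads CAGGTG. The search covered 1 window per gene, from 250 bases before to 50 bases after a RefSeq gene start (GRCh38.p14). Any other start of the same gene was not searched. The window of TSPAN8, for example, ended at 71158059, whereas its gene on the minus strand reaches 71441898 in GENCODE 29. A window was matched for 19 of the 26 members, and those of CD37, CD81, CD151, TSPAN3, TSPAN7, TSPAN9 and TSPAN18 were not. Among the 17 matched members that were tested, 4 windows held the core, against 18.9% of the windows of all genes tested. The sites are shown because they include that of TSPAN13, the member with the largest rise. The capitals mark the E-box core, and each site is written 5′ to 3′ on the strand of its gene.
TSPAN13 (chr7:16753522-16753551, plus strand): gccctccctcctCACCTGctcctggggaaa
TSPAN2 (chr1:115089712-115089741, minus strand): gctcccgccctgCAGGTGctccgatagccg
TSPAN10 (chr17:81642117-81642146, plus strand): ctgcctgagtcaCACCTGcgctgagcttag
TSPAN33 (chr7:129144570-129144599, plus strand): tccctcacagaaCAGGTGtctcccccgact
The core begins at position -221 from the RefSeq start of TSPAN13, and the GENCODE 29 start of that gene, 16753535, falls inside the site printed. TSPAN2, which holds the core at position -226, fell, and TSPAN10 and TSPAN33 were not called. TSPAN15, the other member that rose, had no match in its window. A match gives only the letters present, and binding was not measured in these cultures.

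The 3′UTRs were searched for a second sequence, the 7-mer GAACACA, which was picked in an earlier scan of these same counts and is therefore not independent of them. It was present in the 3′UTR of 11.2% of 12317 genes tested. Their median log2 fold change was -0.23, against 0.0077 for genes without it, and their 3′UTRs were longer, with a median of 2898 against 954 bases. Of the 22 tetraspanins tested, 4 held it, among them TSPAN12 and TSPAN8, and TSPAN8 was tested only through its siNC cultures. CD82, which had the next largest fall, had no match. The 4 all had a log2 fold change below 0, as did 959 of the 1378 genes with the 7-mer. Of the 18 tetraspanins without it, 13 were below 0, beside 5367 of 10939 genes without it, and the median of the 18 was -0.36. The 3′UTRs of the 4 were also longer, with a median of 3351.5 against 806.5 bases for the 18. The capitals mark the 7-mer on the strand of the gene, from GENCODE 29 transcripts on GRCh38, with the first of 2 matches shown for TSPAN14.
TSPAN8 (chr12:71125162-71125190, minus strand): ctagacatattGAACACAtttaagatttg
TSPAN12 (chr7:120788317-120788345, minus strand): tgacttttactGAACACAgttatgttttg
TSPAN14 (chr10:80531188-80531216, plus strand): ctcttaccaacGAACACAtcactagcacc
TSPAN3 (chr15:77045120-77045148, minus strand): gagtagttagaGAACACAtctgggggtgt
The log2 fold changes of these 4 were -2.85, -1.76, -0.74 and -0.13, and the last was not called. The part of this sequence in the falls was not tested.

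TSPAN8, a glycoprotein of digestive epithelia that is often abundant in gastrointestinal tumours, was near the limit of detection. Its gene spans 71125085 to 71441898 on the minus strand of chromosome 12 (GRCh38, as for the positions that follow). It had 18, 13 and 11 reads in the siNC cultures and 2, 1 and 2 in the siZEB1 cultures. Each siNC culture lay far above each siZEB1 culture. Summed over the groups, 42 reads against 5 gave a ratio of 7.69 after scaling to the library totals, with an exact 95% interval of 3.04 to 24.9 that covers counting error only. The fitted log2 fold change was -2.85 (SE 0.56). Since the minimum of 10 reads was met only with siNC, these values describe the 6 cultures, and the test of TSPAN8 is given no weight.

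TSPAN12 helps the receptor FZD4 answer its ligand norrin, and it was the best measured of the large falls. Its gene lies on chromosome 7 from 120787320 to 120858402 (GRCh38). It had 667, 642 and 516 reads with siNC and 164, 168 and 158 with siZEB1. The siZEB1 cultures were nearly alike, and all lay far below the lowest siNC culture. In CPM, which are reads scaled to the TMM-normalized library size, the level was 28.9 ± 2.30 CPM (SD, n = 3) with siNC and 8.56 ± 0.265 CPM (SD, n = 3) with siZEB1, or a fitted log2 fold change of -1.76 (SE 0.096, edgeR adjusted p = 3.35e-10). On the list of the norrin receptor, 3 of 4 genes also fell and none rose (21.0% of all genes fell). FZD4 itself had 81, 100 and 58 reads with siNC and 43, 26 and 33 with siZEB1, which gave a log2 fold change of -1.08 (edgeR adjusted p = 0.000843). The ligand NDP, at -0.80 (edgeR adjusted p = 0.0234), and the co-receptor LRP5, at -0.20 (edgeR adjusted p = 0.0169), had weaker calls. The NDP call was lost without siNC replicate 2 or 3, without siZEB1 replicate 2 or 3, and with DESeq2, with adjusted p-values up to 0.0877. That of LRP5 was lost without siNC replicate 2, without siZEB1 replicate 2 and with the replicate number as a block, with adjusted p-values up to 0.0946.

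CD82, on chromosome 11 from 44564427 to 44620363 and known as a suppressor of metastasis, fell to well below the control level. It had 345, 375 and 311 reads with siNC and 110, 104 and 131 with siZEB1. The groups were far apart, at 16.4 ± 0.335 CPM against 6.03 ± 0.738 CPM (SD, n = 3 each). The log2 fold change was -1.44 (SE 0.11, edgeR adjusted p = 2.44e-08), or -63.2%. On the opposite strand, AC010768.1 shares 6.91% of the exonic bases of CD82, and the sources do not say whether the counting used the strand.

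CD151, the tetraspanin that binds laminin-binding integrins most tightly, lies on chromosome 11 from 832843 to 839831 and also fell. Its reads were 2276, 2614 and 2410 with siNC and 1447, 1563 and 1310 with siZEB1. All siZEB1 cultures were below all siNC cultures, and the level went from 116 ± 9.03 to 75.5 ± 6.51 CPM (SD, n = 3 each). The log2 fold change was -0.62 (SE 0.077, edgeR adjusted p = 5.69e-06). Exons of POLR2L and AP006621.1 on the opposite strand cover 7.57% of its exonic bases. Among 8 integrin subunits listed, 4 fell, 1 rose and 3 were not called, beside 21.0% of all genes that fell and 18.8% that rose. The list was made for laminin- and collagen-binding integrins but also holds ITGA5, which fell, and ITGAV, which was not called, and these are not laminin-binding chains. The calls of ITGA3, ITGA5 and ITGB4 were not stable. ITGA6, a laminin-binding alpha chain, fell from 294 ± 27.3 to 208 ± 17.2 CPM (SD, n = 3 each), or a fitted log2 fold change of -0.50 (edgeR adjusted p = 3.48e-05). ITGA7, another laminin-binding chain, fell by 0.28 on the log2 scale. ITGA3, the partner of CD151 in many epithelia, was at -0.20 (edgeR adjusted p = 0.0159), a call lost without siNC replicate 2, without siZEB1 replicate 2 and under the block. ITGA5, a fibronectin receptor chain, was at -0.19 (edgeR adjusted p = 0.019), a call lost under the block and without siNC replicate 2 or siZEB1 replicate 2 or 3. ITGB4, which pairs with ITGA6 in hemidesmosomes, was at 0.29 (edgeR adjusted p = 0.0331). Its call was lost under the block and without siNC replicate 1 or 2 or siZEB1 replicate 1 or 3, and its log2 fold change was 0.18 without siNC replicate 1.

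TSPAN9, a tetraspanin known from platelets, was among the most abundant members. Its reads were 4690, 5020 and 4437 with siNC and 3056, 2992 and 2992 with siZEB1. The groups did not overlap, at 225 ± 4.90 against 158 ± 3.43 CPM (SD, n = 3 each), which gave a log2 fold change of -0.51 (SE 0.056, edgeR adjusted p = 1.62e-06).

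TSPAN2, best known from oligodendrocytes, had 140, 123 and 121 reads with siNC and 78, 56 and 80 with siZEB1, and fell by 0.71 on the log2 scale (SE 0.16, edgeR adjusted p = 0.00205). TSPAN4, a component of migrasomes, had 723, 859 and 807 reads with siNC and 623, 593 and 564 with siZEB1. Its siNC cultures ranged from 34.0 to 41.9 CPM and its siZEB1 cultures from 29.5 to 33.0 CPM, so that the gap between the groups was narrow. The log2 fold change was -0.29 (SE 0.086, edgeR adjusted p = 0.0125).

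**Figure D2:**
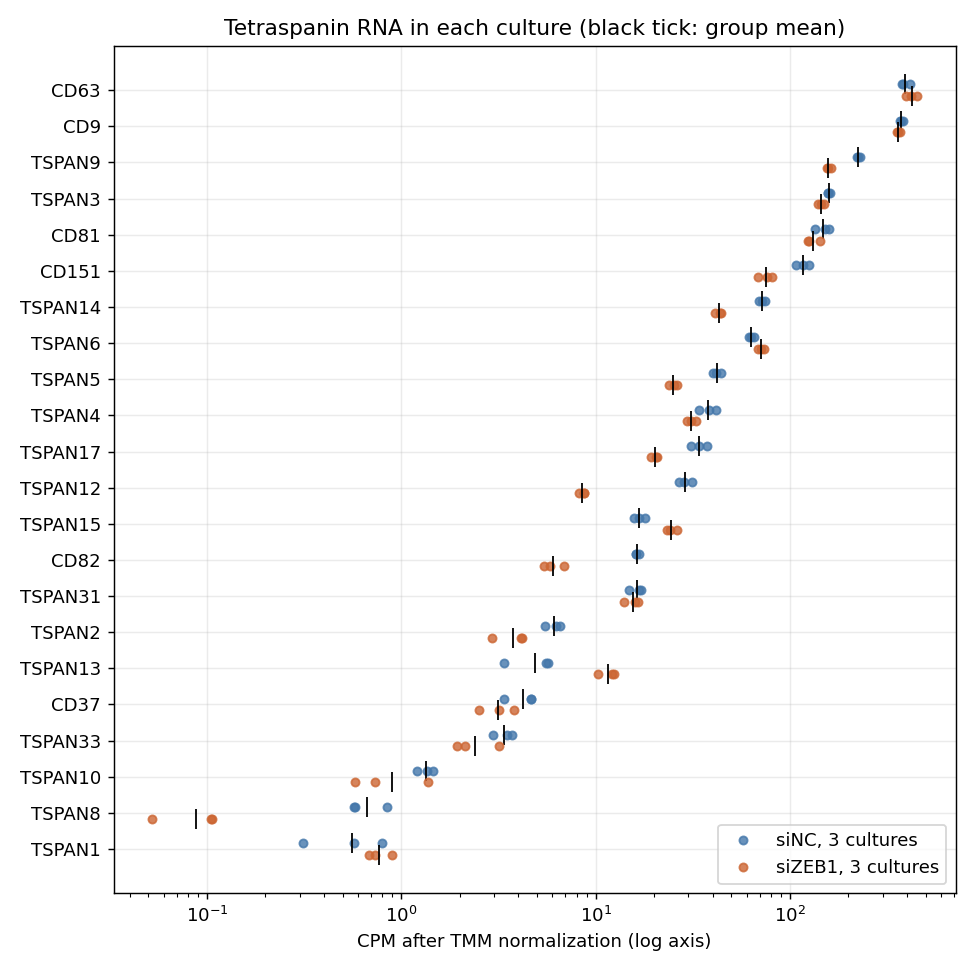
Each point is 1 culture, each row a tetraspanin, and the black tick the group mean; the log axis gives CPM. For TSPAN12, CD82, TSPAN9 and CD151 the siZEB1 points lie to the left of all siNC points, for TSPAN13 and TSPAN15 to the right, while CD63, CD81 and TSPAN31 overlap.

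The C8 tetraspanins, named for the cysteines in their large loop, escort the protease ADAM10 out of the endoplasmic reticulum and steer it to its substrates. Of the 6, TSPAN5, TSPAN14 and TSPAN17 fell by similar amounts, TSPAN15 rose, and TSPAN10 and TSPAN33 were not called.

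TSPAN14 is on chromosome 10 from 80454166 to 80533123, and with TSPAN5 it is known to favour the cleavage of Notch. It had 1482, 1617 and 1428 reads with siNC and 823, 794 and 842 with siZEB1, or a fitted log2 fold change of -0.74 (SE 0.068, edgeR adjusted p = 1.65e-07). TSPAN5 had 884, 994 and 775 reads with siNC and 476, 459 and 502 with siZEB1. Its log2 fold change was also -0.74 (SE 0.078, edgeR adjusted p = 8.27e-07). TSPAN17 had 663, 761 and 723 reads with siNC and 391, 394 and 370 with siZEB1, at -0.76 (SE 0.087, edgeR adjusted p = 2.30e-06). In none of these 3 did the groups overlap, and each siZEB1 mean was about 40% below its siNC mean (-40.3%, -40.3% and -41.0%).

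TSPAN15, on chromosome 10 from 69451473 to 69507669, directs ADAM10 to N-cadherin and went the other way. Its reads were 380, 355 and 321 with siNC and 498, 448 and 460 with siZEB1. Each siZEB1 culture lay above each siNC culture, at 24.6 ± 1.61 against 16.8 ± 1.01 CPM (SD, n = 3 each), which gave a log2 fold change of 0.55 (SE 0.089, edgeR adjusted p = 9.42e-05). TSPAN33, found in erythroid and epithelial cells, had 63, 78 and 72 reads with siNC and 40, 61 and 37 with siZEB1, with overlap between the groups. At a log2 fold change of -0.49 (SE 0.21, edgeR adjusted p = 0.0714) it was not called, and among the alternatives run it was called only without siZEB1 replicate 2, at -0.74 (edgeR adjusted p = 0.0149). TSPAN10 had 29, 27 and 28 reads with siNC and 26, 14 and 11 with siZEB1. Of its siZEB1 cultures, replicate 1 lay among the siNC cultures and the others below them, and the log2 fold change of -0.58 (SE 0.33, edgeR adjusted p = 0.172) became -1.03 (edgeR adjusted p = 0.0355) without that replicate.

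Per length of exonic sequence, as length-normalized TPM, the C8 tetraspanins summed to 89.0, 90.9 and 90.1 TPM in the siNC cultures and to 76.6, 71.8 and 75.0 TPM in the siZEB1 cultures. TSPAN15 made up 28.6%, 24.9% and 25.5% of that sum with siNC and 47.9%, 45.0% and 46.3% with siZEB1. Without TSPAN15, the sum was 63.5 to 68.2 TPM with siNC and 39.5 to 40.2 TPM with siZEB1. These shares depend on the length assigned to each gene, which for TSPAN14 was 17888 bases, most of it a 3′UTR of 15147 bases.

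**Figure D3:**
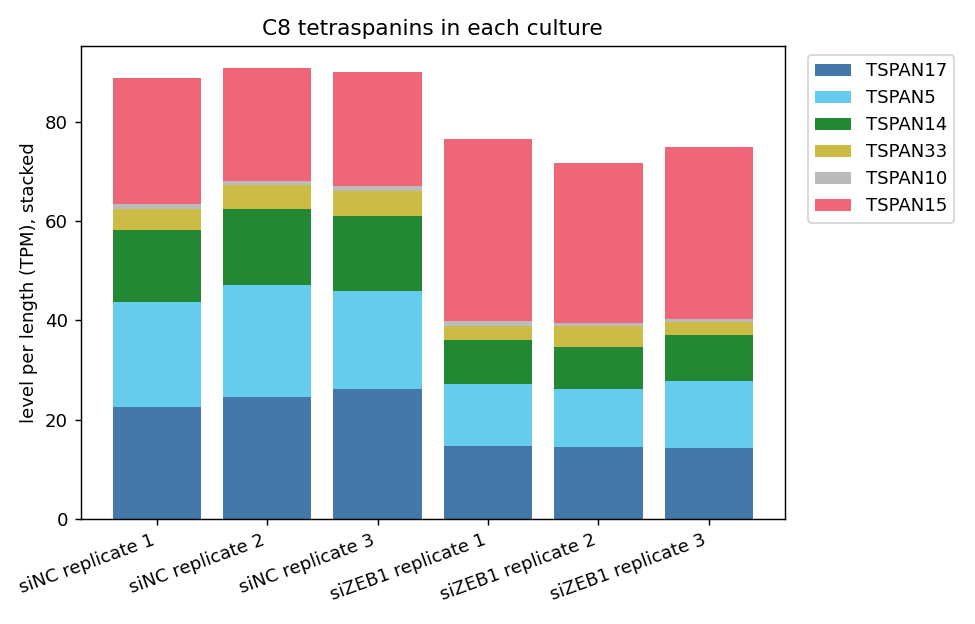
Bars stack the levels per length (TPM) of the 6 C8 tetraspanins in each culture. The whole bars are shorter in the siZEB1 cultures, and TSPAN15, at the top, takes 45.0% to 47.9% of them against 24.9% to 28.6% with siNC.

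Of the genes of ADAM proteases and their substrates, 7 of 9 were tested, of which 3 fell and 1 rose (21.0% and 18.8% of all genes). CDH2, the gene of N-cadherin, was not among the 7 tested, so no change of this substrate of TSPAN15 and ADAM10 is given. ADAM10 itself had 2798, 2801 and 2110 reads with siNC and 1816, 1830 and 2144 with siZEB1. Its groups overlapped, at 122 ± 11.3 and 101 ± 9.44 CPM (SD, n = 3 each), and its log2 fold change was -0.27 (edgeR adjusted p = 0.0117). That call was lost without siNC replicate 1 or 2 and without siZEB1 replicate 1 or 2, with adjusted p-values up to 0.0727. The receptor NOTCH1 fell from 65.8 ± 2.66 to 38.5 ± 0.407 CPM (SD, n = 3 each), or a fitted log2 fold change of -0.77 (edgeR adjusted p = 1.24e-07), and NOTCH2 fell by 0.43 on the log2 scale. E-cadherin, CDH1, which ADAM10 can shed, rose from 39, 54 and 26 reads to 594, 540 and 606 reads.

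TSPAN13, on chromosome 7 from 16753535 to 16784536, had the largest rise among the 22 members tested. It had 121, 76 and 107 reads with siNC and 195, 234 and 238 with siZEB1. The siNC cultures varied more, from 3.39 to 5.69 CPM, but all lay below the siZEB1 cultures, which ranged from 10.3 to 12.4 CPM. The log2 fold change was 1.26 (SE 0.16, edgeR adjusted p = 6.86e-06), a fold of 2.40.

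The members used as markers of exosomes, CD9, CD63 and CD81, were not called. CD63, which is concentrated in late endosomes, had 7993, 8512 and 8049 reads with siNC and 7973, 8692 and 7588 with siZEB1, and its groups overlapped (log2 fold change 0.12, SE 0.062, edgeR adjusted p = 0.149). Without siNC replicate 3 it was called as higher, at 0.17 (edgeR adjusted p = 0.0277). Exons of AC009779.2 on the other strand cover 9.001% of its exonic bases. CD9, a regulator of cell fusion and adhesion, had 7887, 8554 and 7159 reads with siNC and 6713, 7057 and 6902 with siZEB1. After normalization its groups were close but did not overlap, at 375 ± 6.38 and 361 ± 5.74 CPM (SD, n = 3 each), with a log2 fold change of -0.053 (SE 0.052, edgeR adjusted p = 0.446). CD81, also a receptor for hepatitis C virus, had 2868, 3380 and 3074 reads with siNC and 2349, 2747 and 2391 with siZEB1, which gave a log2 fold change of -0.18 (SE 0.074, edgeR adjusted p = 0.0607). It was called as lower without siNC replicate 1 (-0.25, edgeR adjusted p = 0.0159), without siZEB1 replicate 2 (-0.25, edgeR adjusted p = 0.024) and with no filter on low counts (-0.19, edgeR adjusted p = 0.0335).

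Per length, CD63 and CD9 were the most abundant tetraspanins in each culture. CD63 stood at 554 ± 21.3 TPM with siNC and 598 ± 27.9 TPM with siZEB1, and CD9 at 336 ± 10.7 and 323 ± 8.66 TPM (SD, n = 3 each). With siNC they were followed by TSPAN9 at 122 ± 1.12, CD151 at 110 ± 6.85, CD81 at 74.9 ± 5.32 and TSPAN3 at 69.5 ± 2.05 TPM (SD, n = 3 each), and the cultures of CD81 and TSPAN3 overlapped. The same order held with siZEB1, where TSPAN9, at 85.1 ± 2.17, and CD151, at 71.3 ± 4.62 TPM (SD, n = 3 each), lay closer to CD81, at 65.8 ± 4.61 TPM (SD, n = 3). CD63 and CD9 together took 58.6% to 59.2% of the summed tetraspanin level in the siNC cultures and 64.7% to 65.9% in the siZEB1 cultures. That sum lay between 1488 and 1528 TPM with siNC and between 1396 and 1447 TPM with siZEB1. Fewer cells with a transcript and less of it per cell cannot be told apart in such bulk RNA.

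Of the other members that were not called, TSPAN6, a widely expressed member linked to exosome release, came closest. It had 1388, 1418 and 1181 reads with siNC and 1333, 1422 and 1317 with siZEB1, and after normalization every siZEB1 culture was above every siNC culture (log2 fold change 0.17, SE 0.066, edgeR adjusted p = 0.0517). It was called as higher with DESeq2 (adjusted p = 0.049), with median-of-ratios size factors (0.042), with a minimum of 10 reads in every culture (0.045) and without siZEB1 replicate 3 (0.0493). TSPAN3 had 3346, 3598 and 3027 reads with siNC and 2814, 2782 and 2682 with siZEB1, which did not overlap as CPM (log2 fold change -0.13, SE 0.058, edgeR adjusted p = 0.086). TSPAN31, a neighbour of CDK4, was at -0.069 (SE 0.099, edgeR adjusted p = 0.614). Exons of CDK4, AGAP2 and MIR6759 on the opposite strand cover 30.1% of its exonic bases, which makes its count uncertain where the strand was not used.

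TSPAN1, a member known from digestive epithelia, had between 7 and 17 reads in each culture, and its log2 fold change of 0.46 (SE 0.39, edgeR adjusted p = 0.383) could not be separated from the spread at this depth. CD37, a tetraspanin of lymphocytes, had 99, 104 and 65 reads with siNC and 60, 48 and 73 with siZEB1 (log2 fold change -0.42, SE 0.19, edgeR adjusted p = 0.0873). It was called as lower without siNC replicate 3 (-0.55, edgeR adjusted p = 0.0197) and without siZEB1 replicate 3 (-0.58, edgeR adjusted p = 0.0357). Exons of TEAD2 and AC011450.1 on the opposite strand cover 10.8% of its exonic bases, and the leukocyte markers CD3E, CD68 and LYZ had at most 9 reads in any culture.

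The 4 members below the minimum were CD53, TSPAN7, TSPAN11 and TSPAN18. CD53, another leukocyte tetraspanin, had 10, 3 and 4 reads with siNC and 15, 4 and 6 with siZEB1. TSPAN11 had 6, 14 and 8 reads with siNC and 5, 4 and 4 with siZEB1. TSPAN7 had at most 2 and TSPAN18 at most 4 reads in any culture, and none of these differences could be judged at this depth.

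The genes that work with tetraspanins were followed on 8 lists, of which 71 of 85 genes were tested and 20 rose and 21 fell (UPK1A and MAL2, among the 20, through a filter met only with siZEB1), beside 18.8% and 21.0% of all genes. The first of these counts moved to 13 without siZEB1 replicate 1. On the list of exosome biogenesis, 12 of 18 genes rose and 1, HGS, fell by 0.19 on the log2 scale (edgeR adjusted p = 0.0456, and named after its value was seen). The HGS call was lost with DESeq2, with median-of-ratios size factors, under the block and without siNC replicate 2 or 3 or siZEB1 replicate 1 or 3, with adjusted p-values up to 0.174, and its log2 fold change was -0.12 without siNC replicate 3. The median log2 fold change of the 18 was 0.23, and the genes called higher but not named below rose by 0.22 to 0.27 on the log2 scale. Those small rises were not followed gene by gene under the alternatives, and for VPS4B (edgeR adjusted p = 0.0381) the groups overlapped. The lists were chosen with earlier results of these data known. SDC4, a syndecan whose cargo is carried into exosomes with syntenin, rose from 98.1 ± 2.49 to 205 ± 2.37 CPM (SD, n = 3 each), or a fitted log2 fold change of 1.06 (edgeR adjusted p = 3.56e-10). The ESCRT-III subunit CHMP4C rose from 211, 212 and 205 reads to 389, 386 and 363 reads, which gave a log2 fold change of 0.99. SDC1 and TSG101, an ESCRT-I subunit, rose by 0.40 and 0.39 on the log2 scale. CHMP4A had 11 to 15 reads with siNC and 19 to 28 with siZEB1, and its call (log2 fold change 0.91, edgeR adjusted p = 0.0328) was lost with DESeq2, under the block and without siNC replicate 1 or 2 or siZEB1 replicate 1 or 3, with adjusted p-values up to 0.125.

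Among the immunoglobulin-domain and other direct partners, 16 of 20 genes were tested, of which 4 rose and 4 fell (18.8% and 21.0% of all genes). EPCAM, an adhesion molecule that binds CD9 and TSPAN8 with claudin-7, rose from 54.7 ± 2.29 to 454 ± 14.1 CPM (SD, n = 3 each), or a fitted log2 fold change of 3.05 (edgeR adjusted p = 1.58e-15). CLDN7, the gene of claudin-7, had 14, 19 and 7 reads with siNC and 26, 14 and 39 with siZEB1, which overlapped. Its call (log2 fold change 1.12, edgeR adjusted p = 0.0316) was lost without siNC replicate 1 or 3 or siZEB1 replicate 1 or 3, and the log2 fold change was 0.73 without siZEB1 replicate 3. EGFR, whose signalling CD82 is known to restrain, fell by 0.96 on the log2 scale, CD4 by 0.70 and the lipid kinase PI4K2A by 0.43.

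Tetraspanins that carry other symbols were scarce. UPK1A, a uroplakin of the bladder, had 9, 7 and 4 reads with siNC and 22, 13 and 18 with siZEB1. It met the minimum of 10 reads only through siZEB1, so it had to differ if tested, and its fitted log2 fold change of 1.53 (SE 0.41) is a description. ROM1 was not called, and PRPH2 and UPK1B had at most 2 reads in any culture. Of the other 4-pass families, which resemble tetraspanins in outline only, 12 of 17 genes were tested. Of these, 1 rose and 5 fell (18.8% and 21.0% of all genes). The gene called higher was MAL2, which serves transport to the apical membrane and had 2, 4 and 6 reads with siNC and 32, 21 and 26 with siZEB1. It too met the minimum only through siZEB1, and its values are a description. EMP1 fell by 0.85 on the log2 scale, CMTM4 by 0.52, CMTM7 by 0.41 and PMP22 by 0.29. Of 4 palmitoyltransferases reported to modify tetraspanins, ZDHHC6 fell by 0.50 and the other 3 were not called (21.0% of all genes fell).

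**Figure D4:**
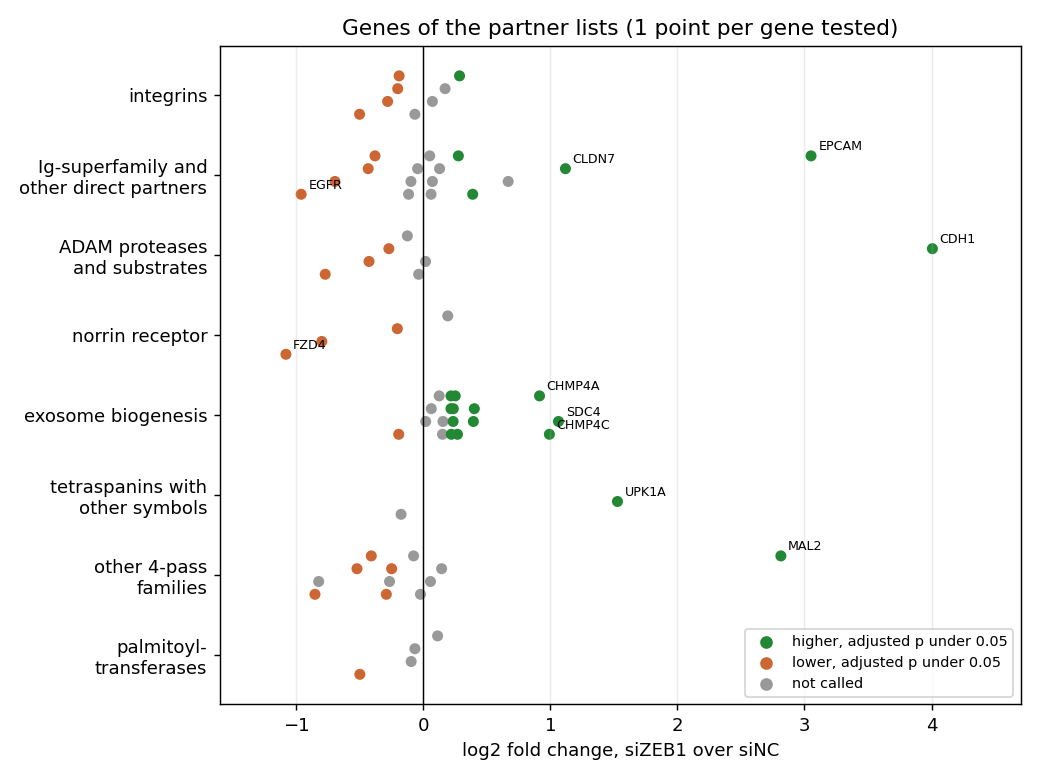
Each point is 1 gene tested, placed by its log2 fold change of siZEB1 over siNC and grouped by list, with colours for the call at an adjusted p-value under 0.05. CDH1 at 4.01, EPCAM at 3.05 and MAL2 at 2.81 lie farthest to the right, FZD4 at -1.08 farthest to the left. MAL2 and UPK1A were tested only because of their siZEB1 cultures. Of the 18 exosome genes, 12 are called higher, against 18.8% of all genes tested, on a list chosen with earlier results of these data known.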

How the data were processed

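RNA from 6 SW480 cultures was sequenced by the authors, who deposited raw read counts per Ensembl gene for each culture. Per the labels, the submitters' processing notes name Trimmomatic, HISAT2, SAMtools, featureCounts and hg38, without versions; the annotation and strand setting are not given in the sources used here. The counts were used as deposited. Genes with 10 or more reads in at least 3 cultures (15187 of 32029) were normalized by TMM and compared by edgeR's quasi-likelihood test (edgeR 4.0.16, R 4.3.3; two-sided, group as the only term), and p-values were adjusted over those genes by the Benjamini-Hochberg method; the study's methods give thresholds but name no test for these counts. The SE is the log2 fold change over the square root of its F statistic. The biological coefficient of variation was 6.58%. CPM use TMM library sizes, and TPM use union exon lengths of GENCODE 29 (31059 genes matched; all 26 members), without TMM. One principal transcript per gene gave the 3′UTR. The test was checked on simulated data.

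The members and lists were chosen with earlier results of these data known. Named were all members, up to 5 called genes with the largest change from each list, and ZEB1, CDH1 and ADAM10. Alternatives were DESeq2 1.42.0, other size factors, filters and thresholds, the replicate number as a block, and each culture left out. Same-numbered cultures did not deviate together. A marker gene of the lists is not reported here.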

Additional observations from a re-analysis of the deposited data

How the results depend on the processing

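Apart from TSPAN8, the 9 tetraspanins called lower and the 2 called higher kept their direction and their call under each alternative fit; TSPAN8 could not be tested with at least 10 reads in every culture. Of the members not called, TSPAN31 changed sign without siZEB1 replicate 2, with log2 fold changes from -0.12 to 0.00069 over the cultures left out. With each culture left out in turn, tetraspanins called lower ranged from 10 to 12 and those called higher from 2 to 3, the median log2 fold change of the 22 from -0.46 to -0.35, partner genes called higher from 13 to 20 and called lower from 15 to 21. TSPAN8, tested only through its siNC cultures, is among those called lower in each of these fits, and also under the thresholds and the block given below. The cause of the shifts between the fits was not tested.

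Where calls needed a fold over 1.5 with a p-value under 0.05 before adjustment, 1088 genes were higher and 1423 lower, with 1 tetraspanin higher and 8 lower, and 9 partner genes higher and 7 lower. With a p-value under 0.001 these counts were 680 and 1004, 1 and 8, and 5 and 5; the stricter rule leaves out small changes by its construction. With the replicate number as a block, 2299 genes were higher and 2679 lower, with 2 tetraspanins higher and 10 lower and a median of -0.46, and 14 partner genes higher and 17 lower. The labels do not say that a number marks a shared batch, and the deviations of same-numbered cultures correlated at -0.059, -0.11 and -0.30, so the block has no basis as a pairing. The median of all genes tested moved by less than 0.1 under every scaling. Members with fewer than about 20 reads per culture, such as TSPAN8 and TSPAN1, are limited by depth.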
